A study of Mus musculus with 6 samples.

Results

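Genes of sterol and fatty acid synthesis that are under the control of the SREBP transcription factors were followed in whole lung tissue of mouse embryos whose lung epithelium had lost Smad1. The group was chosen by name and holds 36 genes: 18 enzymes of cholesterol synthesis, 12 genes of fatty acid synthesis and desaturation, and 6 regulators or sterol carriers. The platform annotation named a probe set for 35 of them, out of 18193 genes in all, and Acat2 was not analysed here. Where a gene had several probe sets, the brightest on average over the 6 arrays stood for it, so the choice used no difference between genotypes.

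The animals were 3 Smad1 CKO embryos, with Smad1 removed conditionally in the lung epithelium, and 3 wild type embryos. Both groups had the strain C57/BL6 and were taken at E18.5, shortly before birth. Total RNA of the left lobe was read on 1 Affymetrix Mouse430_2 array per animal, and the design text groups the animals as 3 pairs. The sources used here do not name the promoter that drives the deletion, the deleted part of Smad1 or the Cre status of the wild type animals. The lobe holds every cell type of the lung, so fewer cells of a type and less RNA per cell cannot be told apart. Levels are given as log2(intensity + 1), and differences are Smad1 CKO minus wild type on that scale, as the mean of 3 pairs with the SD over pairs. Nothing says whether the members of a pair were littermates, and p-values measure the spread between these 6 animals only.

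SREBPs are transcription factors held in the endoplasmic reticulum with their escort Scap. When sterols are plentiful, Insig proteins keep Scap there. When sterols run low, the complex moves to the Golgi, where proteases release the active factor, which then switches on sterol and fatty acid genes. In the lung before birth this lipid supply feeds surfactant, which alveolar type 2 cells make from phospholipids and cholesterol.

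The array Smad1 CKO 3 stood apart before any gene was compared. Its highest 18S ribosomal RNA signal reached 2887, where the remaining arrays had 242.5 to 297.2. Its 3' beta-actin signal was 5820, where they had 18445 to 20900. Its 3' over 5' ratio was 1.56 for beta-actin and 1.01 for Gapdh, where they had 1.21 to 1.39 and 0.886 to 0.936. Genes with a mean log2 level of 9 or more had a median difference of -0.28 in pair 1, -0.02 in pair 2 and -1.25 in pair 3, which holds that array. Genes from 5 to below 7 had 0.22, 0.03 and 0.33. Pair 1 also differed in the female-specific Xist (10.95 in Smad1 CKO 1, 6.23 in wild type 1) and in the Y-linked Eif2s3y (3.78 and 8.66). Pair 2 showed neither feature, so its values are given beside those of all pairs. Of the 3 Smad1 probe sets, the brightest differed by 0.06 ± 0.51 (SD, 3 pairs), with an interval of -0.56 to 0.67, and the others by -0.18 ± 1.01 and -0.28 ± 1.11. In pairs 1 and 2 all 3 probe sets were higher in the Smad1 CKO lung. After cyclic loess normalization between arrays they differed by 0.58, 0.31 and 0.09, and the brightest was higher in every pair, by 0.42, 0.56 and 0.76 (unadjusted p = 0.00919, limma). A lower Smad1 signal was therefore not measured in the lungs labelled Smad1 CKO, and a probe set checks the label only if it lies in the deleted part.

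Most of the sterol and fatty acid genes were lower in the Smad1 CKO lungs. Of the 35, 23 were lower in all 3 pairs, while 29.3% of all genes were. In the opposite direction stood Mvk, higher in all 3 pairs, while 21% of all genes were. With limma, 17 were lower at an unadjusted p under 0.05, against 9.96% of all genes, and 1 was higher, against 4.96%. None passed after adjustment over the 45037 probe sets, of which 1 passed lower (0.00222%) and 0 higher (0%), while 5712 had an unadjusted p under 0.05. The adjusted p was 0.102 for Scd1 and at least 0.367 for each of the others. The median difference over the 35 genes was -0.64, against -0.09 over all genes. Among all genes, the median was -0.33 for a mean log2 level from 7 to below 9 and -0.52 for 9 or more. All 35 had a mean log2 level of at least 6, and among the 12475 genes as bright as that 13.9% were lower at an unadjusted p under 0.05 and 40.4% were lower in all 3 pairs.

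The same direction was present in each pair. Differences lay below 0 for 30 genes in pair 1, where 56.9% of all genes did, for 30 genes in pair 2, where 50.4% did, and for 29 genes in pair 3, where 56.4% did. The medians over the 35 genes were -0.55, -0.25 and -0.93 in pairs 1 to 3, against -0.09, -0.002 and -0.16 over all genes. Of the 35, 21 had a mean log2 level from 7 to below 9, and 11 had one of 9 or more. Among all genes, those from 7 to below 9 had pair medians of -0.29, -0.03 and -0.60. Those of 9 or more had -0.28, -0.02 and -1.25, so the pair 3 median of the 35 lay within the shift of bright genes. In pair 2 alone, 6 genes were at least 1.5-fold lower (Hmgcs1, Idi1, Fdps, Cyp51, Insig1 and Scd1), while 1.89% of all genes were and 2.41% of those with a mean log2 level of at least 6, and none was 1.5-fold higher, while 1.29% of all genes were. Pair 3 held the lowest of the 3 differences for 24 genes, while it did so for 47.8% of all genes. Pair 2 held it for 4 genes (31.5% of all genes) and pair 1 for 7 (20.8% of all genes).

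**Figure D1:**
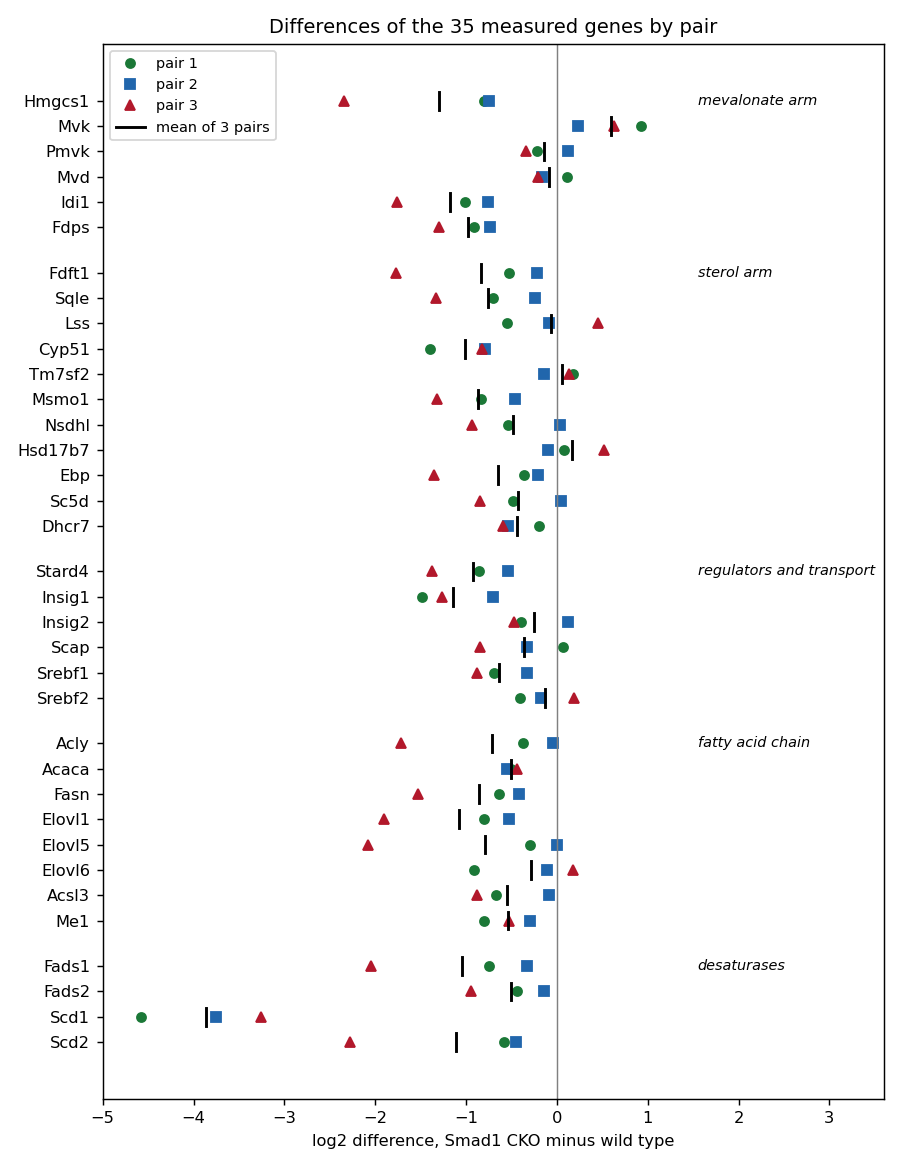
Log2 differences, Smad1 CKO minus wild type, of the 35 measured genes in each of the 3 pairs (green circles pair 1, blue squares pair 2, red triangles pair 3), with the mean as a black bar, ordered by role. Most points lie left of 0, Scd1 lies farthest left in every pair, and Mvk lies right of 0 in every pair.

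The early part of the mevalonate pathway turns acetyl-CoA into farnesyl diphosphate. Hmgcs1, which makes HMG-CoA, was at 10.77, 10.78 and 9.12 in Smad1 CKO lungs 1 to 3, against 11.58, 11.52 and 11.45 in wild type lungs 1 to 3. Every Smad1 CKO value lay below every wild type value. The difference was -1.30 ± 0.90, 2.46-fold lower (unadjusted p = 0.0112, limma). This probe set is of a type that may also bind other transcripts, and the other 4 probe sets of Hmgcs1 differed by -1.25, -1.27, -1.43 and -0.34.

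Idi1, the isomerase that supplies dimethylallyl diphosphate, was at 7.91, 8.23 and 6.89 in Smad1 CKO lungs, against 8.93, 8.99 and 8.65 in wild type lungs. Its difference was -1.18 ± 0.52, 2.26-fold lower (unadjusted p = 0.00367, limma). The groups did not overlap. Fdps, which makes farnesyl diphosphate, was at 8.35, 8.44 and 7.21 in Smad1 CKO lungs, against 9.26, 9.18 and 8.50 in wild type lungs. It was 1.98-fold lower, at -0.98 ± 0.28 (unadjusted p = 0.0032, limma), again with no overlap. A second Fdps probe set differed by 0.95, with 1.51, -0.03 and 1.35 in the 3 pairs, so the 2 disagreed in pairs 1 and 3. The second was dim, at 5.55, 4.05 and 5.50 in Smad1 CKO lungs, against 4.04, 4.08 and 4.15 in wild type lungs. Genes with a mean log2 level below 5 had medians of 0.20, 0.02 and 0.31 in the pairs. The mean of the 2 Fdps probe sets gave -0.02 (unadjusted p = 0.929, limma). Without Smad1 CKO 3 the brighter one gave -0.59 (unadjusted p = 0.0584, limma).

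Of the 3 enzymes between them, 1 was higher and the other two did not reach an unadjusted p under 0.05. Mvk, mevalonate kinase, was at 8.42, 7.38 and 8.16 in Smad1 CKO lungs, against 7.49, 7.15 and 7.53 in wild type lungs. The groups overlapped, since Smad1 CKO 2 lay below 2 of the wild type values, while each pair was higher in the Smad1 CKO animal. The difference was 0.60 ± 0.35 (unadjusted p = 0.0338, limma), 0.23 in pair 2 and 0.18 in the second Mvk probe set. Without pair 1 it was 0.43 (unadjusted p = 0.232, limma). Pmvk, phosphomevalonate kinase, differed by -0.15 ± 0.24, with an interval of -0.63 to 0.34. Mvd, the decarboxylase that yields isopentenyl diphosphate, differed by -0.08 ± 0.17, with an interval of -0.55 to 0.38.

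The sterol part of the pathway begins with squalene and ends with cholesterol. Cyp51, lanosterol 14-alpha-demethylase, was at 6.06, 6.64 and 5.76 in Smad1 CKO lungs, against 7.46, 7.43 and 6.59 in wild type lungs. The ranges touched, since Smad1 CKO 2 exceeded wild type 3 slightly, and each pair was lower by at least 0.79. The difference was -1.01 ± 0.34, 2.01-fold lower (unadjusted p = 0.0036, limma). Msmo1, which removes the methyl groups at carbon 4 of the sterol ring, was at 7.11, 7.32 and 6.14 in Smad1 CKO lungs, against 7.95, 7.78 and 7.46 in wild type lungs. Its groups did not overlap, and it was 1.83-fold lower, at -0.87 ± 0.43 (unadjusted p = 0.00992, limma). Fdft1, squalene synthase, and Sqle, squalene epoxidase, differed by -0.84 ± 0.82 and -0.76 ± 0.55 (unadjusted p = 0.0459 and 0.0265, limma). In pair 2 they differed by -0.22 and -0.25, and without pair 3 by -0.37 and -0.48 (unadjusted p = 0.119 and 0.0627, limma). Of the 4 probe sets of Fdft1, 2 lay lower and the other 2 higher, by 0.57 and 0.69. The higher 2 were dimmer, with wild type means of 5.93 and 5.87, against 8.91 and 8.50 for the lower 2. The mean of all 4 gave -0.08 (unadjusted p = 0.685, limma).

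The other sterol enzymes did not reach an unadjusted p under 0.05. Ebp, a sterol isomerase, was at -0.64 ± 0.62. Nsdhl, a sterol dehydrogenase that works with Msmo1, was at -0.48 ± 0.49. Dhcr7, which makes cholesterol from 7-dehydrocholesterol, was at -0.44 ± 0.21 and was lower in all 3 pairs. Sc5d, a sterol desaturase, was at -0.43 ± 0.45. Lss, which closes the ring to lanosterol, was at -0.06 ± 0.50. Tm7sf2, a sterol reductase, was at 0.05 ± 0.17, and Hsd17b7, a keto-reductase, at 0.17 ± 0.32. The intervals were -0.67 to 0.55 for Lss, -0.41 to 0.52 for Tm7sf2 and -0.35 to 0.68 for Hsd17b7. Another Lss probe set gave -0.54 ± 0.57, with an interval of -1.19 to 0.11 that holds the difference of Cyp51.

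**Figure D2:**
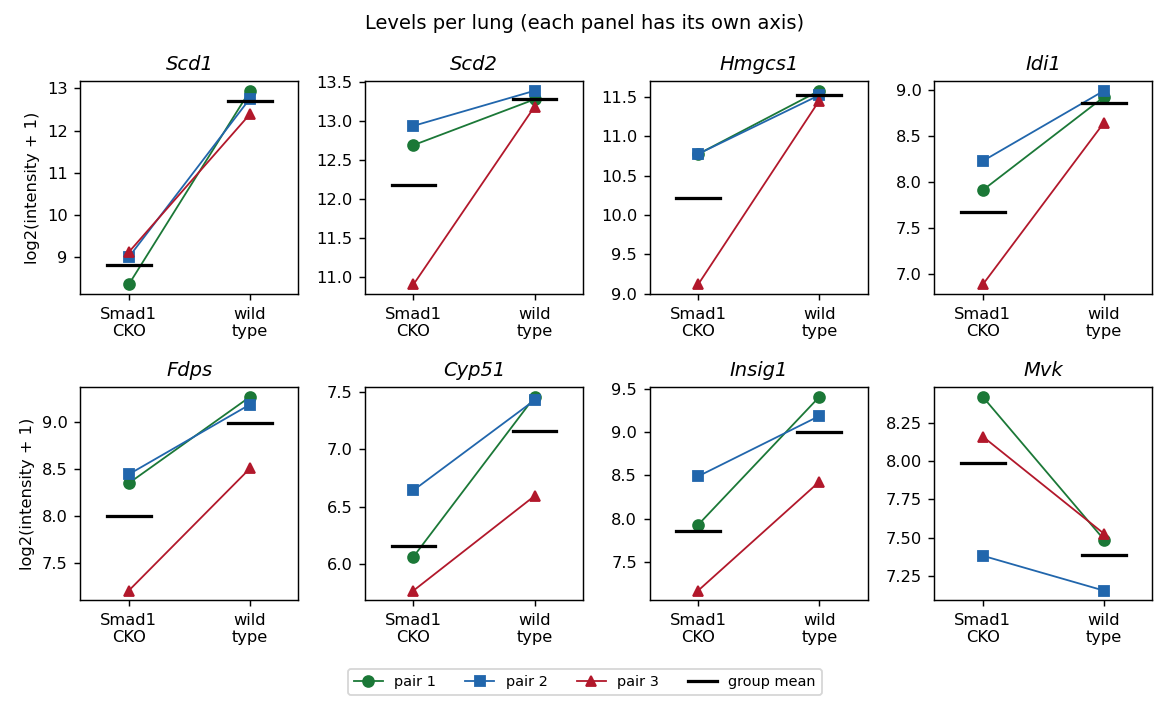
Levels, as log2(intensity + 1), of 8 genes in the Smad1 CKO lung (left) and the wild type lung (right) of each pair, with lines joining a pair and black bars for the means of 3 lungs. Scd1 separates the genotypes in every pair, Smad1 CKO 3 is the lowest lung for Scd2, Hmgcs1, Idi1, Fdps, Cyp51 and Insig1, and Mvk runs the other way.

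Among regulators and carriers, Insig1 and Stard4 were the lowest. Insig1, which retains Scap in the endoplasmic reticulum and is itself an SREBP target, was at 7.93, 8.49 and 7.17 in Smad1 CKO lungs, against 9.41, 9.19 and 8.43 in wild type lungs. Smad1 CKO 2 exceeded wild type 3, and every pair was lower. The difference was -1.15 ± 0.40, 2.22-fold lower (unadjusted p = 0.00249, limma). Without Smad1 CKO 3 it was -0.80 (unadjusted p = 0.0501, limma). Its relative Insig2 differed by -0.25 ± 0.32 in its brightest probe set and by -0.90 ± 1.10 and -0.51 ± 0.76 in the others, none of which reached an unadjusted p under 0.05.

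Stard4, a carrier of cholesterol between membranes, was at 9.20, 9.43 and 8.78 in Smad1 CKO lungs, against 10.06, 9.97 and 10.15 in wild type lungs. The groups did not overlap, and the difference was -0.92 ± 0.42, 1.89-fold lower (unadjusted p = 0.00759, limma). Srebf1, which encodes the SREBP that favours fatty acid genes, was at 9.91, 10.26 and 9.09 in Smad1 CKO lungs, against 10.61, 10.60 and 9.96 in wild type lungs. Its groups overlapped, with -0.64 ± 0.28 over the pairs (unadjusted p = 0.0212, limma), and after cyclic loess normalization its difference was -0.10 (unadjusted p = 0.646, limma). Srebf2, which encodes the SREBP that favours sterol genes, was at -0.13 ± 0.30 in its brighter probe set. Its other probe set was at -0.91 ± 0.51 and lower in all 3 pairs (unadjusted p = 0.0111, limma), and the mean of both was at -0.52 (unadjusted p = 0.0232, limma). Scap was at -0.37 ± 0.46 in one probe set and at 0.13 ± 0.07 in the other. After cyclic loess the brighter probe sets of Srebf2 and Scap stood at 0.33 and 0.078. mRNA levels do not measure how much SREBP protein is cleaved.

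Promoter sequence was set beside these values, since members that were lower together and members that were not can be read side by side. The windows are those of RefSeq (build GRCm38.p6), and the 250 bases before the annotated start were searched on both strands for TCACNCCAC, the classical sterol regulatory element with 1 free base, for CCAAT, the box bound by NF-Y, a partner of SREBPs, for the E-box CACGTG and for the GC box GGGCGG. Matches of different motifs may overlap. A window was found for 29 of the 36 genes, and none was used for Fdps, Fdft1, Sqle, Stard4, Fads1, Scd1 or Scd2. Below are the windows of 4 genes that were lower (Hmgcs1, Idi1, Cyp51 and Insig1) and of 2 that were not (Mvk and Tm7sf2), 5′ to 3′, in lower case with the sterol element and CCAAT or its complement ATTGG in capitals.
Hmgcs1: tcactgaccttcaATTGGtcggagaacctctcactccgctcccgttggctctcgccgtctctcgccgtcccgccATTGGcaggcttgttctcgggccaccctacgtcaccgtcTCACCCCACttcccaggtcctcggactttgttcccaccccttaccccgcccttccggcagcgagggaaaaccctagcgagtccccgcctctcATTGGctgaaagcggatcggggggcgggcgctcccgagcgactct
Idi1: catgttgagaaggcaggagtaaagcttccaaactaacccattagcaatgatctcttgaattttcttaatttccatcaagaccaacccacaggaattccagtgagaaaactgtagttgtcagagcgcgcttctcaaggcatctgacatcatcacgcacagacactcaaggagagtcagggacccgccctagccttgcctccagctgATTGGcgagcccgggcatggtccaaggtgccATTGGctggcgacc
Cyp51: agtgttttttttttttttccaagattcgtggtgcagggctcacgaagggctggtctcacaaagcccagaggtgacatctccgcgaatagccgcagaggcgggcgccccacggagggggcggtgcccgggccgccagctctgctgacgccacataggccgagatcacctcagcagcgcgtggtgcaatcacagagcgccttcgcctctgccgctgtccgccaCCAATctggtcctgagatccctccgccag
Insig1: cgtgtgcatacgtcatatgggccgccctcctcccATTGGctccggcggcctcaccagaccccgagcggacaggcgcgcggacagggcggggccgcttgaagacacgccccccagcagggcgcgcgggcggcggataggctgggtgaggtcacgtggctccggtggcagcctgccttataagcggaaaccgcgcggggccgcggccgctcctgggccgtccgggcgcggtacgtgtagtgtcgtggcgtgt
Mvk: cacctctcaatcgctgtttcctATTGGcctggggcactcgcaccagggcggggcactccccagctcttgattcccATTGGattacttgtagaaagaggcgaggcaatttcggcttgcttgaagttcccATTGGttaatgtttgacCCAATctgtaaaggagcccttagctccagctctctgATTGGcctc
Tm7sf2: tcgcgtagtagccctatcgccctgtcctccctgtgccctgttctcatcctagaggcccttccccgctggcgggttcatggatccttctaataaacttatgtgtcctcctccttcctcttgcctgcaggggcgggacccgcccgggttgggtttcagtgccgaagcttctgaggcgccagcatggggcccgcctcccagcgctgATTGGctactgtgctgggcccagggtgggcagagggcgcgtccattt
They lie at chr13:119690101-119690350 (plus strand), chr13:8885356-8885605 (plus strand), chr5:4104698-4104947 (minus strand), chr5:28071162-28071411 (plus strand), chr5:114444074-114444263 (plus strand) and chr19:6067851-6068100 (minus strand), each just upstream of its gene.

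The pattern TCACNCCAC was found in the Hmgcs1 window and in none of the other 28 genes searched, while 1.22% of the 27025 genes with a window held it. Sequences that differ from this pattern were not searched for, so a window without a match is not shown to lack a sterol element. The Hmgcs1 match begins 137 bases before the start, with CCAAT boxes on its minus strand beginning 237, 176 and 45 bases before it. CCAAT was found in 23 of the 29 genes (79.3%), while 37.5% of all genes held it, and GGGCGG in 24 (82.8%), while 35.4% of all genes did. CACGTG was found in 6 (20.7%), while 6.86% of all genes did. Among measured genes with a window, CCAAT was found in 9 of 10 that were lower at an unadjusted p under 0.05 and in 14 of 18 others, CACGTG in 1 of 10 and 5 of 18, and GGGCGG in 8 of 10 and 15 of 18. These counts were not tested, and 7 lower genes had no window. Mvk, higher in all 3 pairs, held 5 CCAAT boxes in the 190 bases between it and its neighbour Mmab, which starts on the other strand, and Tm7sf2, with a difference near 0, held 1. Mmab, which encodes an enzyme of vitamin B12 metabolism, differed by 0.34, with 0.67, -0.07 and 0.42 in the pairs. A match is a description of letters, not a site of binding.

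**Figure D3:**
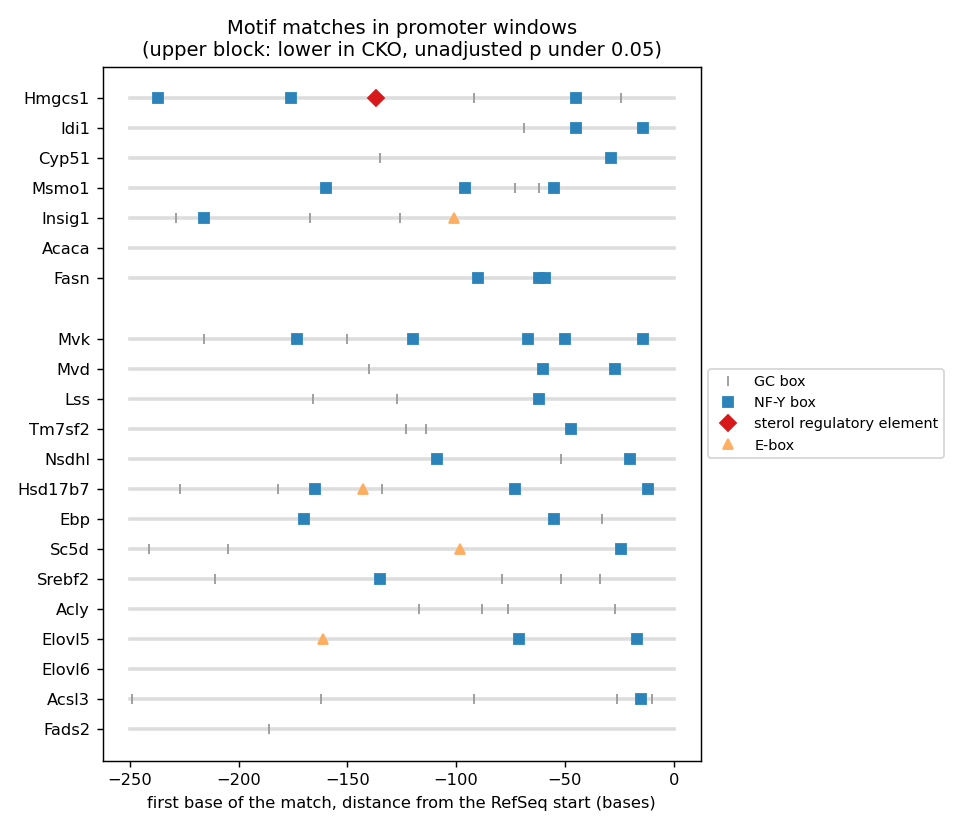
Positions of motif matches (red diamonds sterol regulatory element, blue squares NF-Y box, orange triangles E-box, grey ticks GC box) in the 250 bases before the RefSeq start of the 21 measured genes with a single window. The upper block holds the 7 that were lower at an unadjusted p under 0.05 and the lower block the other 14, and NF-Y boxes stand in both blocks.

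Fatty acid synthesis starts from citrate, which Acly splits into acetyl-CoA. All 12 genes of this branch had a difference below 0, with a median of -0.75, and 11 were lower in all 3 pairs, against 29.3% of all genes and 40.4% of those with a mean log2 level of at least 6. The median was -0.31 in pair 2, -0.24 after cyclic loess and -0.38 without Smad1 CKO 3. Fasn, the fatty acid synthase, was at 10.61, 11.02 and 9.54 in Smad1 CKO lungs, against 11.25, 11.44 and 11.07 in wild type lungs. The groups did not overlap, at -0.86 ± 0.59, 1.82-fold lower (unadjusted p = 0.0192, limma). Acaca, acetyl-CoA carboxylase, was at 9.01, 8.92 and 8.78 in Smad1 CKO lungs, against 9.52, 9.47 and 9.22 in wild type lungs. It had the smallest spread of the 35, with -0.51, -0.55 and -0.44 in the pairs and a mean of -0.50 ± 0.05 (unadjusted p = 0.0338, limma). After cyclic loess normalization Fasn stood at -0.28 and Acaca at -0.03 (unadjusted p = 0.12 and 0.904, limma).

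The elongases, which add carbon units to fatty acids, were uneven. Elovl1, which elongates saturated chains to very long ones, was at 9.80, 10.08 and 8.33 in Smad1 CKO lungs, against 10.59, 10.61 and 10.23 in wild type lungs. Its groups did not overlap, and it was 2.11-fold lower, at -1.08 ± 0.73 (unadjusted p = 0.0131, limma). This probe set too may bind other transcripts, and the other 3 gave -0.71, -1.03 and -0.40. The difference was -0.54 without Smad1 CKO 3 and -0.55 after cyclic loess, and without the pairing its unadjusted p was 0.0509 (limma). Elovl5, which elongates polyunsaturated chains, was at -0.79 ± 1.12, with -0.29, -0.003 and -2.07 in the pairs, so most of its mean came from pair 3. Elovl6, which turns palmitate into stearate, was at -0.28 ± 0.57. Acly was at -0.71 ± 0.88, with -0.05 in pair 2. Acsl3, which activates fatty acids with coenzyme A, was at -0.55 ± 0.41, and Me1, malic enzyme, a source of NADPH, at -0.54 ± 0.25 (unadjusted p = 0.0548 and 0.0361, limma).

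Scd1 was the gene with the largest difference of the group. It encodes stearoyl-CoA desaturase 1, which puts a double bond into stearate and palmitate, and it had 2 probe sets. Scd1 was at 8.36, 9.01 and 9.13 in Smad1 CKO lungs, against 12.94, 12.76 and 12.39 in wild type lungs. The groups lay far apart, and the highest Smad1 CKO lung was Smad1 CKO 3, the array on which most of the other genes were lowest. The difference was -3.86 ± 0.67, 14.5-fold lower, with an interval of -4.57 to -3.15 (adjusted p = 0.102, limma). Pairs 1 to 3 gave -4.58, -3.75 and -3.26. The other Scd1 probe set gave -4.05 ± 0.52, with 5.84, 6.39 and 5.42 in Smad1 CKO lungs, against 10.47, 10.05 and 9.26 in wild type lungs. Without pair 3 the difference was -4.16, past the threshold over all probe sets in a fit with fewer arrays (adjusted p = 0.000639, limma). After cyclic loess it was -3.29, with -1.81 in pair 3 (adjusted p = 0.312, limma).

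Scd2, the related desaturase that is prominent in fetal and neural tissue of mice, was at 12.69, 12.94 and 10.90 in Smad1 CKO lungs, against 13.28, 13.39 and 13.19 in wild type lungs. The groups did not overlap, at -1.11 ± 1.02, 2.15-fold lower (unadjusted p = 0.0306, limma). In pairs 1 and 2 its differences were -0.59 and -0.45, and without Smad1 CKO 3 it was -0.47. Its unadjusted p was 0.0718 without the pairing, 0.221 with an intensity trend and 0.0525 with a pseudocount of 16 (limma). Scd1 differed more than Scd2 in every pair, by -3.99, -3.30 and -0.98, a mean of -2.76 ± 1.58 that was not tested, since the 2 genes were set side by side with their values known. Its other 2 probe sets gave -1.32 and -1.44. Both genes lie in a cluster of 4 Scd genes that spans 204.4 kb of chromosome 19 (GRCm38.p6, Scd2 at chr19:44293676-44306864 and Scd1 at chr19:44394450-44407709). Scd3, which lies in the same cluster, was at 5.87, 5.81 and 5.76 in Smad1 CKO lungs, against 5.96, 5.98 and 6.26 in wild type lungs (difference -0.25 ± 0.22). Scd4 was not analysed here.

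Fads1 and Fads2, the delta-5 and delta-6 desaturases of polyunsaturated fatty acids, are neighbours on chromosome 19. Fads1 was at 8.32, 8.60 and 6.32 in Smad1 CKO lungs, against 9.07, 8.93 and 8.36 in wild type lungs. The ranges overlapped through Smad1 CKO 2 and wild type 3, at -1.04 ± 0.90 (unadjusted p = 0.0266, limma). Fads2 was at -0.51 ± 0.41, and Fads3, the third gene of the locus, which was not in the group, at -0.15. All 4 desaturases were lower in all 3 pairs, against 29.3% of all genes and 40.4% of those with a mean log2 level of at least 6.

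The size of the decrease depended on how arrays were brought to a common scale. Some genes stayed lower at an unadjusted p under 0.05 after both quantile and cyclic loess normalization (limma). They were Hmgcs1, Idi1, Fdps, Cyp51, Msmo1, Stard4, Insig1, Elovl1, Scd1 and Scd2. No share of all genes is given for both rules together, so the list is a description only. Between the deposited values and cyclic loess normalization, which evens out the intensity-dependent shift between arrays, the median of the 35 genes moved to -0.22, while that of all genes moved to 0.05. After it, 20 genes were lower in all 3 pairs, against 17.5% of all genes, and 12 genes were lower at an unadjusted p under 0.05, against 6.25% of all genes, and Mvk alone was higher, against 8.82%. The 12 were Hmgcs1, Idi1, Fdps, Sqle, Cyp51, Msmo1, Stard4, Insig1, Elovl1, Fads1, Scd1 and Scd2. Every Smad1 CKO value lay below every wild type value in 10 genes on the deposited values, against 6.05% of all genes and 8.19% of those with a mean log2 level of at least 6, and in 11 after cyclic loess, against 5.78%. In none did every Smad1 CKO value lie above every wild type value, against 4.25% of all genes. Without pair 3, 15 were lower at an unadjusted p under 0.05, against 6.19% of all genes, 1 was higher, against 3.53%, and 26 were lower in both pairs left, against 34.2%.

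**Figure D4:**
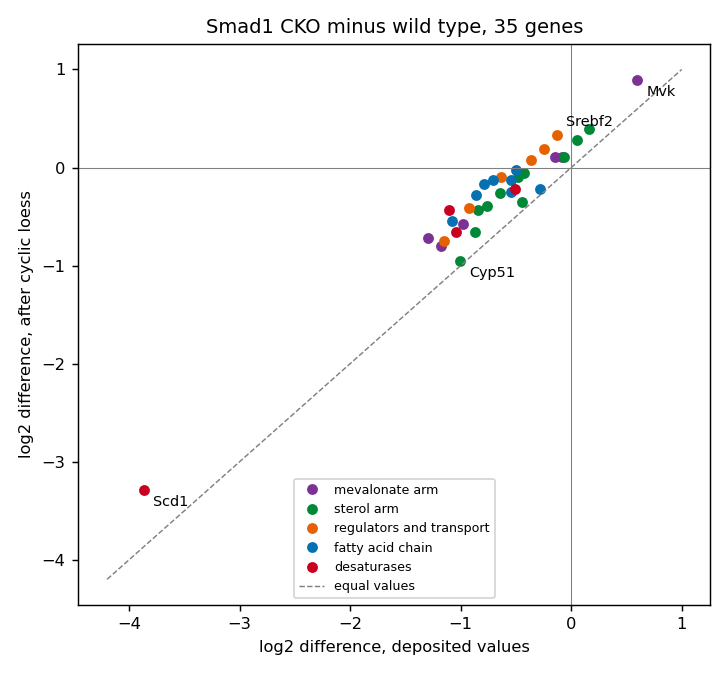
Log2 difference, Smad1 CKO minus wild type, of each of the 35 genes after cyclic loess normalization (vertical axis) against the deposited values (horizontal axis), coloured by role, with a dashed line of equal values. All points lie above the line. Scd1 stays far below 0 at -3.29, Cyp51 hardly moves, and some genes cross 0, such as Srebf2 (-0.13 on the deposited values) and Scap (-0.37).

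Other genes tied to the same lipids were read from lists, and again none passed over all probe sets. Their counts stand against 9.96% of all genes lower at an unadjusted p under 0.05 and 13.9% of those with a mean log2 level of at least 6. Of 16 further SREBP-responsive or precursor genes, 4 were lower at an unadjusted p under 0.05 and 12 did not reach it, with a median of -0.29, -0.08 in pair 2 and -0.02 after cyclic loess. The 4 were Fabp5, a fatty acid carrier, at -1.50 ± 0.79, Gpam, which starts glycerolipid synthesis, at -1.24 ± 0.62, Mid1ip1, an activator of acetyl-CoA carboxylase, at -1.07 ± 0.87, and Lpin1, a phosphatidate phosphatase, at -0.71 ± 0.52. Of 8 genes of SREBP processing and turnover, 3 were lower (median of the 8, -0.55). They were Mbtps2, the site-2 protease, at -0.75 ± 0.56, Fbxw7 at -0.68 ± 0.48 and Erlin1 at -0.65 ± 0.39. None of the 8 was lower at that p after cyclic loess or without pair 3, and the median was -0.10 after cyclic loess and -0.13 in pair 2. The 7 genes of the isoprenoid branch, which leads from farnesyl diphosphate to ubiquinone, dolichol and prenyl groups, had a median of -0.46, and -0.01 in pair 2, and none reached an unadjusted p under 0.05, with Coq2 and Ggps1 both at -0.73.

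Lists of sterol disposal and fatty acid burning were read in the same way. Of 9 genes of sterol efflux, esterification and the oxysterol receptors, 3 were lower, 1 after cyclic loess and 0 without pair 3 (median -0.56, and -0.03 in pair 2), with Lipa, the lysosomal lipase, at -0.57 ± 0.28 and Nr1h3, an oxysterol receptor, at -0.57 ± 0.33. Of 13 genes of mitochondrial fatty acid oxidation, none reached an unadjusted p under 0.05 (median -0.38, and 0.11 in pair 2), with Etfdh at -0.67 ± 0.77. Of 6 genes of NADPH supply, Idh1 was lower, at -0.82 ± 0.80, and the pair 2 median was 0.04. Of 7 other desaturases and elongases, none reached it, with Elovl7 at -0.46 ± 0.37.

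Markers of cell types moved beside these genes. At an unadjusted p under 0.05, 9.96% of all genes were lower and 4.96% higher. Of genes with a mean log2 level of at least 6, 13.9% were lower. Of 13 alveolar type 2 markers, 10 were lower and none higher at an unadjusted p under 0.05, with pair medians of -0.99, -1.09 and -2.21 and summed intensities of 15232 to 50516 in Smad1 CKO lungs, against 75763 to 88811 in wild type lungs. Sftpa1 (-5.17 ± 1.04), Hc (-3.40 ± 0.53), Lpcat1 (-2.28 ± 0.58) and S100g (-1.97 ± 0.18) had the smallest p. The medians of general epithelial markers were 0.03, 0.22 and -1.08 in the pairs, with 1 of 13 lower. Their summed intensities were 7404 to 25679 in Smad1 CKO lungs, against 20525 to 22031 in wild type lungs. After cyclic loess 4 of the 13 were higher and 0 lower at an unadjusted p under 0.05. The shares of all genes were then 8.82% and 6.25%. Of 11 endothelial markers 10 were lower, with pair medians of -0.72, -0.65 and -1.69 and sums of 4600 to 14002 in Smad1 CKO lungs, against 15180 to 21366 in wild type lungs. Of 11 fibroblast and lipofibroblast markers 1 was lower, with medians of -0.17, 0.07 and -1.52 and sums of 10209 to 43576 in Smad1 CKO lungs, against 37432 to 44581 in wild type lungs. No defining marker of these lists was at 0 on any array, and the part of cell composition in the lipid genes was not tested.

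**Figure D5:**
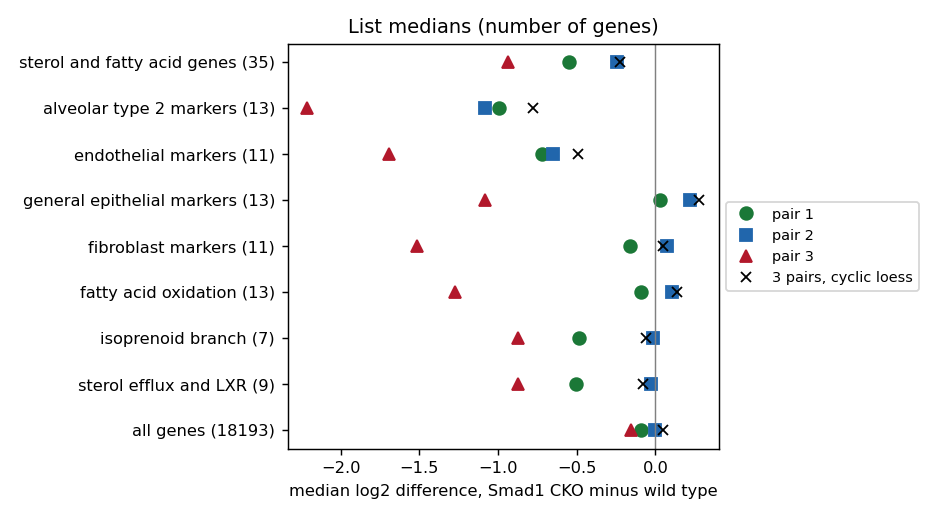
Median log2 difference, Smad1 CKO minus wild type, of each gene list in pairs 1 to 3 (circles, squares, triangles) and over all pairs after cyclic loess (crosses), with the number of genes in brackets. The sterol and fatty acid genes lie below 0 in each pair, at -0.55, -0.25 and -0.93, and the markers of alveolar type 2 and endothelial cells lie lower still.

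Smaller marker lists for other tissues completed the check of the lobe. Of 10 macrophage and leukocyte markers, Lyz2, which type 2 cells also express, was lower. The other 9 did not reach an unadjusted p under 0.05 (median -0.03), while 9.96% of all genes were lower at it. The lowest difference of this list, -1.45, equalled the median of the alveolar type 2 list, so the lists appear to share a gene. Of 5 red cell markers, Slc4a1 was lower, at -0.78. Of 7 hepatocyte and adipocyte markers 3 were higher, Afp (1.17), Ucp1 (0.72) and Alb (0.51), while 4.96% of all genes were. Of these, Afp and Ucp1 had pair 2 differences of -0.26 and -0.02. The median of the 7 was 0.47, -0.006 in pair 2 and 0.53 after cyclic loess. These are dim genes, with a mean level of 5.41 to 6.30 by array. Among all genes, the median difference was 0.23 from 5 to below 7 and 0.20 below 5.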

How the data were processed

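The authors deposited 1 intensity per probe set and array on a linear scale, as the range of the values shows, and per the submitters' processing notes RMA was used. The sources used here name no software, version or settings, so background correction could not be repeated. The 64 control probe sets were left out, and log2(intensity + 1) was taken of the other 45037, which makes differences of dim probe sets smaller. Probe sets were named from the platform annotation: 34945 had 1 symbol, 932 several and 9160 none there. The two-sided test of genotype, with pair as a fixed block, used limma 3.58.1 (R 4.3.3) on all 45037. Benjamini-Hochberg adjustment was at 0.05 and intervals were 95%. The fit was checked on simulated data with gaussian noise, no pair effect, no intensity-dependent shift and no outlying array. That check therefore does not cover data that hold an array such as Smad1 CKO 3. Exact permutation of 3 against 3 arrays cannot go below 0.1 and was not used. Pairs come from the design text and from array names with a shared letter. Deviations from group means correlated at 0.258, 0.604 and 0.597 within pairs, and at 0.215 or less between them. Such deviations cancel within a group by construction, which ties these correlations to each other, so they do not test the pairing. Pair 1, at 0.258, stood close to the highest value between pairs. No 2 arrays were copies. The members, the lists and the reading of pair 2 were chosen with earlier results of these data known. All members are named, and from each other list up to 4 genes with the smallest unadjusted p could be named. Fads3 and Mmab, outside that rule, were named for their place in the genome after their values were seen.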

Additional observations from a re-analysis of the deposited data

How the results depend on the processing

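Results were recomputed with another pseudocount, without dim probe sets, without the replicate block, with quantile or cyclic loess normalization, with an intensity trend, with the mean of all probe sets of a gene, without each pair, and with 2 Smad1 CKO arrays against 3 wild type arrays (without Smad1 CKO 3, unpaired). Pair 2 alone was added after the data were seen. Scd1, Hmgcs1, Idi1, Cyp51 and Stard4 were lower at an unadjusted p under 0.05 in all 11 alternatives other than pair 2 alone. The share of all genes that did so is not given here. The number of probe sets past the adjusted threshold was 1, and it became 0 with a pseudocount of 16, 0 without the replicate block, 0 after quantile normalization, 2 after cyclic loess, 16 without dim probe sets and 32 with an intensity trend, and it ran from 0 (without pair 1) to 28 (without pair 3) with pairs left out. The 17 genes lower at an unadjusted p under 0.05 became 9 without the replicate block and 10 after quantile normalization. They ran from 9 (without pair 1) to 21 (without pair 2) with pairs left out, and were 10 without Smad1 CKO 3. Among these settings a share of all genes is given only without pair 3, so the other counts do not set the 35 genes apart. The 10 genes whose groups did not overlap ran from 10 to 25 with pairs left out, and were 12 without Smad1 CKO 3. Groups of fewer arrays separate more easily in any gene. No share of all genes is given for these settings, so these counts do not set the 35 genes apart. The median of the 35 genes, -0.64, was -0.22 after cyclic loess and -0.25 in pair 2 alone. The cholesterol synthesis median, -0.48, ran from -0.74 (without pair 2) to -0.32 (without pair 3) and was -0.15 without Smad1 CKO 3. Direction turned for some genes, whose differences on the deposited values ran from -0.37 (Scap) to 0.17 (Hsd17b7). After quantile normalization Pmvk was at 0.0060, Mvd at 0.055, Lss at 0.16, Insig2 at 0.11 and Srebf2 at 0.31. After cyclic loess Pmvk was at 0.11, Mvd at 0.10, Lss at 0.11, Insig2 at 0.19, Scap at 0.078 and Srebf2 at 0.33. Without Smad1 CKO 3 Pmvk was at 0.078, Mvd at 0.041 and Scap at 0.0033. With each pair left out in turn Lss ran from -0.32 to 0.18, Tm7sf2 from -0.0060 to 0.15, Hsd17b7 from -0.012 to 0.30, Srebf2 from -0.29 to 0.0053 and Elovl6 from -0.51 to 0.037. With the mean of all probe sets Elovl6 was at 0.0080. Of the 18 genes with an unadjusted p under 0.05, some no longer had one: after cyclic loess Fdft1, Srebf1, Acaca, Fasn and Me1; after quantile normalization these and Sqle and Fads1; without the replicate block Mvk, Fdft1, Sqle, Srebf1, Fasn, Elovl1, Me1, Fads1 and Scd2; with an intensity trend Srebf1, Acaca, Fasn, Me1 and Scd2; with a pseudocount of 16 Fdft1 and Scd2; without dim probe sets Mvk, Acaca and Me1. The same held with the mean of all probe sets for Mvk, Fdps, Fdft1 and Msmo1, without Smad1 CKO 3 for Mvk, Fdps, Fdft1, Sqle, Insig1, Srebf1, Fasn and Fads1, without pair 3 for Fdft1 and Sqle, without pair 2 for Acaca, and without pair 1 for Mvk, Fdft1, Sqle, Msmo1, Srebf1, Acaca, Fasn, Me1 and Fads1. The cause was not tested. With 3 arrays per genotype and no detection calls, small differences of dim probe sets cannot be settled.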
